A study of Mus musculus with 8 samples.

Results

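In hepatocytes of Lcmr1 knockout mice, 121 protein-coding genes that were close to silent in control hepatocytes were read at 2 CPM or more (CPM, a gene's counts scaled by the library's total). A gene was taken when its mean over the control libraries was under 0.5 CPM, its mean over the knockout libraries was 2 CPM or more, and every knockout library exceeded every control library. Of the 17132 protein-coding genes in the table, 5014 were under 0.5 CPM in control cells, and the 121 switched-on genes made up 2.413% of these. The expression values themselves chose the genes, so their knockout and control levels are given as a description and carry no test.

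Knockout cells came from mice with both the floxed Lcmr1 allele (Lcmr1f/f) and albumin-cre, a Cre recombinase transgene under the albumin promoter, which is active in hepatocytes. Control cells came from Lcmr1f/f mice without the transgene. All cells were primary hepatocytes freed from the liver by a digestion in 2 steps, cultured for 24 h and given 100 nM glucagon for 12 h, so neither genotype has an unstimulated group. RNA was sequenced in 3 knockout and 3 control libraries, and chromatin immunoprecipitation (ChIP) in 1 knockout and 1 control library. The labels give neither the age of the mice nor the number of animals behind each library, so the spread between libraries may be technical.

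Lcmr1 is now called Med19 and belongs to Mediator, the large complex at promoters through which transcription factors act on RNA polymerase II. In a differentiated cell such as the hepatocyte, most tissue-specific genes of other organs stay silent, and so do liver genes of the other sex or of fetal life. In mouse liver the sex-specific programme is set by the rhythm of growth hormone secretion, which is read through the growth hormone receptor and the transcription factor STAT5b.

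RNA libraries held 22191786 to 26595249 counts. Med19 itself was at 3.53, 6.30 and 3.83 CPM in the knockout libraries, against 5.79, 9.02 and 11.2 CPM in the control libraries, a partial decrease in which 1 knockout library exceeded 1 control library. With TMM scaling (trimmed mean of M-values) the values were 2.90, 5.27 and 3.02 in knockout and 7.496, 10.8 and 13.4 in control libraries, with no overlap, and Med19 was called lower (log2 fold change -1.50, edgeR adjusted p = 0.012). The labels do not say which part of the gene is floxed. Control replicate 1 stood apart from the other control libraries (chi-square per degree of freedom 149.7 and 143.2 against replicates 2 and 3, which differed from each other by 7.408). Hepatocyte markers were called lower in knockout cells for 9 of 9 genes, against 12.95% of all tested genes. Markers of macrophages were called higher for 10 of 14, against 12.6% of all tested genes. Their summed level was 1029 to 1260 CPM in knockout and 331.9 to 442.3 CPM in control libraries. In bulk RNA, a changed number of cells of a type and a changed amount of RNA per cell cannot be told apart.

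The sequences of a few promoters come first, since the groups described afterwards refer to them. They are the 150 bases before the RefSeq start of each gene (build GRCm38.p6, the mm10 genome), read 5′ to 3′ on the gene's strand. Capitals mark only the motif matches named in this paragraph, and shorter motifs counted further below are left unmarked. A1bg and Hamp2 are shown as female-biased liver genes. In both, the capitals mark a STAT element (TTCNNNGAA), the type of site that STAT5 proteins bind, which begins at -84 in A1bg and at -94 in Hamp2. Lrtm2 is shown as the gene with the highest knockout level. Hist1h4d is shown as a histone gene with a ChIP region in both genotypes, with its TATA box (TATAAA) at -32. Fbp2 is shown as a gluconeogenic enzyme, with an E-box (CACGTG) at -42.
A1bg, chr15:60921271-60921420, minus strand: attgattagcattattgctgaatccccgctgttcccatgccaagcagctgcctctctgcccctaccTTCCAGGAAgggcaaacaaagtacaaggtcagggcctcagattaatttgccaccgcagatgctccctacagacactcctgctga
Hamp2, chr7:30924182-30924331, minus strand: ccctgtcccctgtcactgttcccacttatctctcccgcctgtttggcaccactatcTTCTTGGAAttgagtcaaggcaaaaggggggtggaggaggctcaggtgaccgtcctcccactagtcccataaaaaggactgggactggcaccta
Lrtm2, chr6:119330767-119330916, minus strand: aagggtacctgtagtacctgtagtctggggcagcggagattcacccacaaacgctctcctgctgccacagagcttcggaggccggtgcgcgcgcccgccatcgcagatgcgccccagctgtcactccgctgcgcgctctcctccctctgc
Hist1h4d, chr13:23581418-23581567, plus strand: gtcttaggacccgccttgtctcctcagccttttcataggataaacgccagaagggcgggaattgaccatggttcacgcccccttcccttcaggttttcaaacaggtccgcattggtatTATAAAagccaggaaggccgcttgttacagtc
Fbp2, chr13:62858401-62858550, minus strand: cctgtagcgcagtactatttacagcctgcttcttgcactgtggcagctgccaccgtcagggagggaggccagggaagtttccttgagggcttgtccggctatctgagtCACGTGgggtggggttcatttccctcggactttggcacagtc
The RefSeq start of A1bg lies 1742 bases from the start of the gene in the deposited table, and that of Hamp2 lies 500 bases from it, while the starts of Lrtm2 coincide.

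Most near-silent genes stayed near silent. Of the 5014, 4007 were also under 0.5 CPM in knockout cells, 609 were at 0.5 to 1 CPM, 276 at 1 to 2 CPM and 122 at 2 CPM or more. The only gene of these 122 that was left out for overlap was Wnt10a, a secreted signalling protein, with 3.25, 0 and 6.20 CPM in knockout and 0, 0 and 0.0451 CPM in control libraries. Among all near-silent genes, every knockout library exceeded every control library in 1369 (27.3%), against 10615 of all 27277 genes (38.9%). The opposite held in 48 near-silent genes (0.957%), a count limited by choosing genes that were low in control cells. Of the 5014, 1151 had no control count and could not be lower in knockout cells. With TMM scaling, the 2 shares of near-silent genes were 18.0% and 1.93%. The mirror rule, with the genotypes exchanged, found 11 genes that went near silent in knockout cells, 0.2686% of the 4095 protein-coding genes under 0.5 CPM there.

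**Figure D1:**
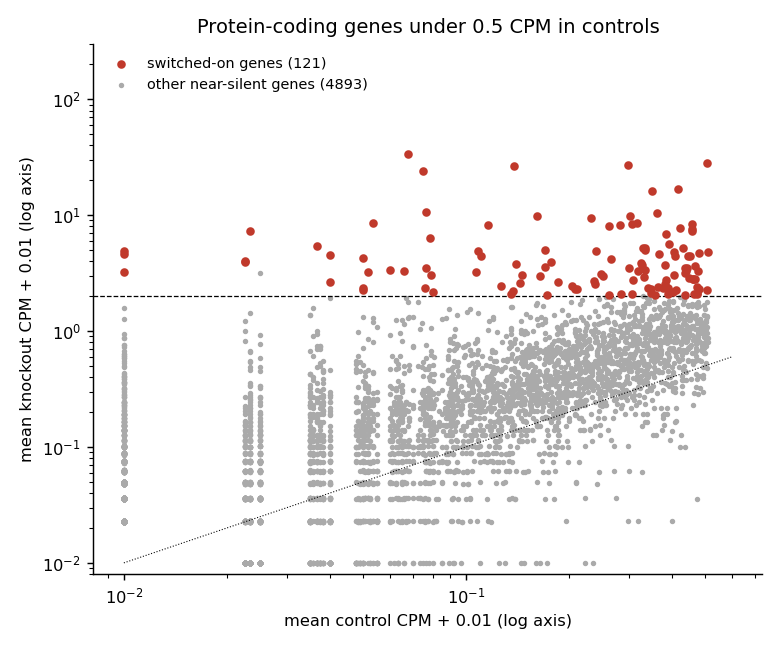
Each point is a protein-coding gene with a mean control CPM under 0.5, plotted as mean knockout CPM (y axis) against mean control CPM (x axis), both plus 0.01 on log axes. The 121 switched-on genes (red) lie above the dashed line at 2 CPM, the 4893 others (grey) include Wnt10a above that line, and the dotted line marks equal levels.

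The switched-on genes had a median of 3.33 CPM in knockout and 0.2955 CPM in control cells. These are modest levels: 47 of the 121 were between 2 and 3 CPM in knockout cells, 31 reached 5 CPM, 9 reached 10 CPM and 5 reached 20 CPM. Together they took 0.0635% ± 0.0116 of all counts in knockout and 0.0032% ± 0.000166 in control libraries (SD, n = 3 each). Behind the median gene stood 256 counts over the knockout libraries and 22 counts over the control libraries. The ratio of knockout to control counts, corrected for library totals, had a median of 15.55 and ranged upward from 4.485 (Mgp), with 27 genes over 50 and 39 under 10. The lowest knockout library was at least 2 times the highest control library in 118 genes, and the smallest such gap was 1.606.

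The level of a gene also depends on how libraries are scaled. The 10 most abundant genes took 11.84% to 12.16% of all counts in knockout and 18.05% to 18.86% in control libraries. TMM factors were 1.23 ± 0.0377 in knockout and 0.816 ± 0.0374 in control libraries (SD, n = 3 each), and without them the median log2 fold change of all tested genes was 0.60 instead of 0.01. With TMM-scaled CPM, 70 of the 121 genes still met the rule. All 121 remained free of overlap between the groups with that scaling, a count that follows largely from the rule. Among all protein-coding genes near silent with TMM-scaled CPM, every knockout library exceeded every control library in 18.0%. The median ratio of mean levels of the 121 was 9.96, over those with any control count, with a lowest of 2.975. Leaving out each of the 6 libraries in turn kept 72 of the 121 genes in every set, and 64 of these also met the rule with TMM.

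The values nearest the thresholds show how the set is bounded. Just inside the knockout threshold were Ifi205 at 2.03 CPM, Casq1 at 2.04 CPM and Rapgefl1 at 2.05 CPM, and just outside it were 5730559C18Rik at 1.999 CPM, Cdkl3 at 1.97 CPM and H2-Ob at 1.97 CPM. Just inside the control threshold were 1700029J07Rik at 0.499 CPM, Spn at 0.497 CPM and Rasl10b at 0.495 CPM. Just outside it were Atp6v0e2 at 0.507 CPM, Large2 at 0.510 CPM and Fbxl16 at 0.514 CPM.

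Across all genes, edgeR's quasi-likelihood test (TMM, Benjamini-Hochberg adjusted p under 0.05) called 1905 of 15135 genes higher in knockout cells (12.6%) and 1960 lower (12.95%). Scaled by library size alone, as in the rule that chose the set, 7711 were called higher and 617 lower, so the balance of directions rests on the scaling. The counts with TMM fell to as few as 1119 higher (without control replicate 3) and 1104 lower (without knockout replicate 1). All 121 switched-on genes passed the filter on low counts and 118 were called higher, a count that follows from how they were chosen. The remaining genes were Vps37d, Plpp7 and Rapgefl1. The authors' deposited table marks all 121 as significant, with log2 fold changes of 1.562 to 8.728, among 2229 marked genes of the 18770 with an adjusted p (11.88%).

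Knockout libraries did not read the switched-on genes equally. Replicate 3 was the highest knockout library for 73 genes, replicate 2 for 25 and replicate 1 for 23, and replicate 2 was the lowest for 71. The highest knockout library was a median of 1.947 times the lowest, from 1.037 times for Spink1 to 10.51 times for Capn11, and more than 3 times for 17 genes. Across the 121 genes, log levels correlated with r = 0.75 between replicates 1 and 2, 0.74 between 1 and 3, and 0.58 between 2 and 3. These correlations are across genes, which are not independent replicates, and the points share their libraries.

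**Figure D2:**
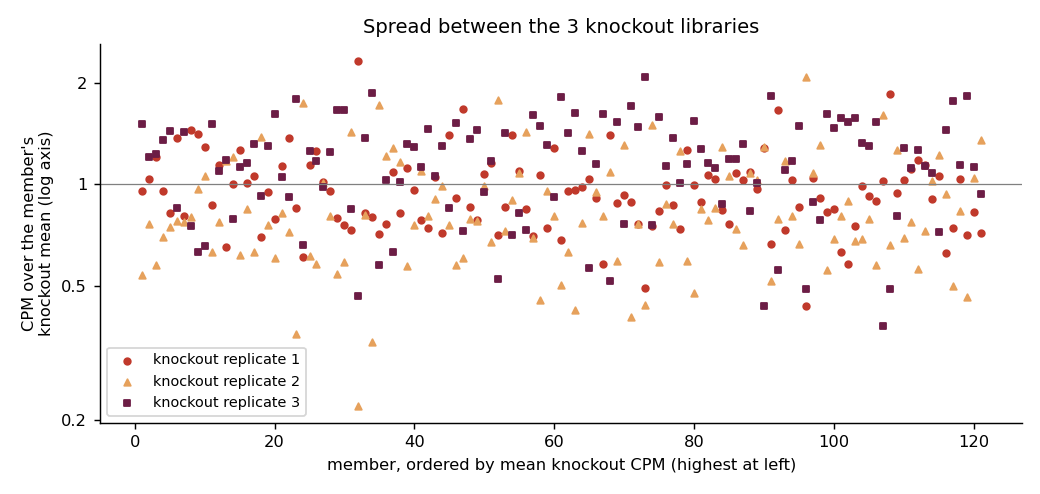
CPM of each switched-on gene in each knockout library divided by the gene's mean over the 3 knockout libraries (y axis, log), with genes ordered by mean knockout CPM (x axis). Replicate 3 (squares) is the highest for 73 genes and replicate 2 (triangles) the lowest for 71; the widest column is Capn11.

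The largest group by role held 22 genes of synapses, ion channels and neurons. The roles were assigned to the genes after the set was known, so the size of a group is a description. Lrtm2, a leucine-rich repeat membrane protein expressed in brain, had the highest knockout level of all: 32.1, 18.1 and 50.9 CPM in knockout libraries 1 to 3, against 0.0376, 0 and 0.135 CPM in control libraries. All 3 knockout libraries were far above the control libraries, in which 4 counts were found in total, and the ratio was 619 (95% exact counting interval 241.5 to 2274). Lrtm2 (ENSMUSG00000055003, chromosome 6, 119315133 to 119330766, minus strand) lies inside Cacna2d4, on the opposite strand.

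Cacna2d4, an auxiliary subunit of voltage-gated calcium channels, was itself switched on. It was at 3.88, 2.47 and 6.48 CPM in knockout and 0, 0.12 and 0 CPM in control libraries, with the ratio resting on 3 control counts (105, interval 35.5 to 510). Both genes had their highest value in knockout replicate 3 and their lowest in replicate 2. No strand setting of the counting is stated, so reads of the pair cannot be assigned with certainty.

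Mpp2, a scaffold protein of the postsynaptic density, was at 22.9, 13 and 14.2 CPM in knockout and 0.301, 0.519 and 0.406 CPM in control libraries. Syt14, a member of the synaptotagmin family, was at 3.10, 3.08 and 5.73 CPM in knockout and 0.0376, 0 and 0 CPM in control libraries. Its single control count gave a ratio of 292 with a wide interval, 52.0 to 11570. Tmem151a, a transmembrane protein expressed in the nervous system, was at 8.55, 6.19 and 14.8 CPM in knockout and 0.188, 0.0399 and 0.225 CPM in control libraries, with replicate 3 again the highest.

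Receptors and channels of excitable cells were switched on at lower levels. They included Chrna9, a nicotinic acetylcholine receptor subunit (mean 3.93 CPM in knockout, 0.168 CPM in control cells), the glutamate receptor subunits Grin3b (3.16 against 0.427 CPM) and Gria3 (2.32 against 0.376 CPM), and Trpm8, the cold-sensing cation channel (3.25 against 0.0416 CPM). Grin3b overlaps Tmem259 on the opposite strand (266.9 CPM in knockout, 195.2 CPM in control cells). It also starts 512 bp after Wdr18 on the same strand (85.9 and 60.8 CPM). Reads of Grin3b therefore cannot be assigned with certainty. Gldn, gliomedin, which organises nodes of Ranvier, had no count in any control library. It was at 3.92, 1.67 and 9.13 CPM in knockout libraries. Its ratio against a floor of 3 counts over the control group was 119.6, and the interval begins at 96.82. In the annotation that the deposited table carries, 7 of the 108 switched-on genes with a cellular component were placed at the postsynaptic membrane (6.481%), against 2.358% of near-silent genes, a term picked after the values were seen. Terms without a neuronal meaning differed as well, in both directions, such as nucleolus (5.556% against 1.711%) and nucleus (12.04% against 22.01%).

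The wider neuronal programme was mostly not detected. Of 28 neuronal and synaptic genes of a separate list, 12 had at most 3 counts in each genotype. Only 8 genes other than Lrtm2 passed the count filter. Of these 1 was called higher, near the share over all tested genes (12.6%). It was Scn2a, a voltage-gated sodium channel, at 0.723 ± 0.204 CPM in knockout and 0.0276 ± 0.0242 CPM in control cells (SD, n = 3 each).

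A second group carried functions of the brush border, the microvillus surface of kidney and gut epithelia. Myo7b, an unconventional myosin of the microvillus tip, was at 25.2, 18.3 and 35.5 CPM in knockout and 0, 0.16 and 0.225 CPM in control libraries, a ratio of 215. Vil1, villin, which bundles the actin core, was at 5.72, 11.3 and 7.59 CPM in knockout and 0.301, 0.2 and 0.315 CPM in control libraries. Cdhr2, a protocadherin that links microvillus tips, was at 1.73, 1.56 and 3.6 CPM in knockout and 0, 0.279 and 0.315 CPM in control libraries. Replicate 2 was the lowest knockout library for Myo7b and Cdhr2 and the highest for Vil1.

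Further genes of this surface were Calml4, a light chain of Myo7b (7.10, 3.26 and 6.6 CPM in knockout; 0.15, 0.638 and 0.36 CPM in control libraries), and Baiap2l2, a membrane-bending protein of microvilli. Baiap2l2 was at 2.82, 1.90 and 4.90 CPM in knockout libraries and had no count in control libraries. Its ratio against the floor was 78.48, and the interval begins at 63.35. Of the list's other brush border genes, 16 were tested, 2 were called higher and 0 lower. The share called higher was near that over all tested genes (12.6%). The higher genes were Cdhr5 and Fabp2. Cdhr5, the partner of Cdhr2, was at 295.8 ± 18.5 CPM in knockout and 107.4 ± 1.03 CPM in control cells (log2 fold change 0.87, edgeR adjusted p = 0.00144). Fabp2, a fatty acid binding protein, was at 136.7 ± 2.97 and 44.5 ± 14.4 CPM (log2 fold change 1.04, edgeR adjusted p = 0.0105, SD, n = 3 each). The median log2 fold change of those 16 genes was 0.34, against 0.01 over all tested genes. Ush1c, which anchors Myo7b to the protocadherins, stayed near 0 in both genotypes, with 2 counts in knockout and 2 counts in control libraries in total.

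Liver genes of the other sex formed a small group. A1bg, a secreted plasma protein, was at 19.6, 17.9 and 34.5 CPM in knockout and 0.15, 0 and 0.0451 CPM in control libraries, a ratio of 353 (interval 151 to 1088). Hamp2, a hepcidin paralogue, was at 8.74, 5.20 and 10.9 CPM in knockout and 0.188, 0.0399 and 0.0901 CPM in control libraries. Sult2a2, a sulfotransferase of steroids and bile acids, was at 2.31, 2.32 and 4.50 CPM in knockout and 0.0376, 0.0798 and 0.0901 CPM in control libraries. All 3 are female-biased in mouse liver, and all 3 were highest in knockout replicate 3.

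All 6 libraries came from cells with a Y chromosome. Xist, the RNA of the inactive X chromosome, had 2 to 6 counts in knockout and 0 to 8 counts in control libraries, and Ddx3y, Eif2s3y, Kdm5d and Uty were read in every library. Uty was called higher (13.4 ± 0.58 CPM in knockout, 6.28 ± 0.26 CPM in control cells, log2 fold change 0.50, edgeR adjusted p = 0.0400; SD, n = 3 each), and the other 3 Y-linked genes were not called. Reads of Hamp2 could be split with its close paralogue Hamp. Hamp moved the other way, with 230.9, 292.4 and 405.8 CPM in knockout and 938.8, 426.8 and 426.6 CPM in control libraries (log2 fold change -1.57, edgeR adjusted p = 0.0296).

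Female-biased genes outside the switched-on set were called higher in 15 of 27 cases, against 12.6% of all tested genes. Male-biased genes were called lower in 25 of 32, against 12.95% of all tested genes. Among these 27 tested female-biased genes 1 was called lower (Tox), with a median log2 fold change of 1.97, against 0.01 over all tested genes. Cyp2a4, a steroid hydroxylase, was at 81.7, 83.1 and 157.8 CPM in knockout and 0.902, 0.678 and 0.901 CPM in control libraries, so only its control mean of 0.827 CPM kept it out of the set (log2 fold change 6.41, edgeR adjusted p = 0.000274). None of the 32 tested male-biased genes was called higher, and their median log2 fold change was -2.98. Those not called lower included Cyp2u1 and Bcl6, with log2 fold changes of 0.12 and 0.13.

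The male-biased genes with the smallest adjusted p were Obp2a, Slco1a1 and Ugt2b38. Obp2a, an odorant-binding lipocalin, was at 0, 0.038 and 0 CPM in knockout and 6.47, 8.02 and 5.81 CPM in control libraries (edgeR adjusted p = 0.000274), and is 1 of the 11 genes that went near silent. Slco1a1, an organic anion transporter, was at 4.94, 9.95 and 8.22 CPM in knockout and 125.7, 281.7 and 300.9 CPM in control libraries (edgeR adjusted p = 0.000554). Ugt2b38, a glucuronosyltransferase, was at 9.69, 15.8 and 9.64 CPM in knockout and 37.7, 50.4 and 41.9 CPM in control libraries (edgeR adjusted p = 0.000602). Without control replicate 1, which stood apart, the whole female-biased list had 22 genes called higher instead of 18, and the male-biased list 17 called lower instead of 25. The male-biased count was 14 without knockout replicate 1, 15 without control replicate 3 and 14 with no count filter.

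Of 17 tested genes of the growth hormone pathway, 3 were called higher and 3 lower, shares near those over all genes (12.6% and 12.95%). The higher ones were Stat5a, a STAT5 protein (log2 fold change 0.56, edgeR adjusted p = 0.0258), the female-biased repressor Cux2 (3.09, adjusted p = 0.0380) and the cofactor Trim24 (0.46, adjusted p = 0.0469). The lower ones were Ghr, the growth hormone receptor (-1.05, adjusted p = 0.0131), its target Igf1 (-1.62, adjusted p = 0.00245) and the transcription factor Onecut1 (-1.75, adjusted p = 0.00509). Stat5b itself was at 98.3 ± 8.04 CPM in knockout and 76.1 ± 23.5 CPM in control cells (edgeR adjusted p = 0.458; SD, n = 3 each) and did not pass.

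**Figure D3:**
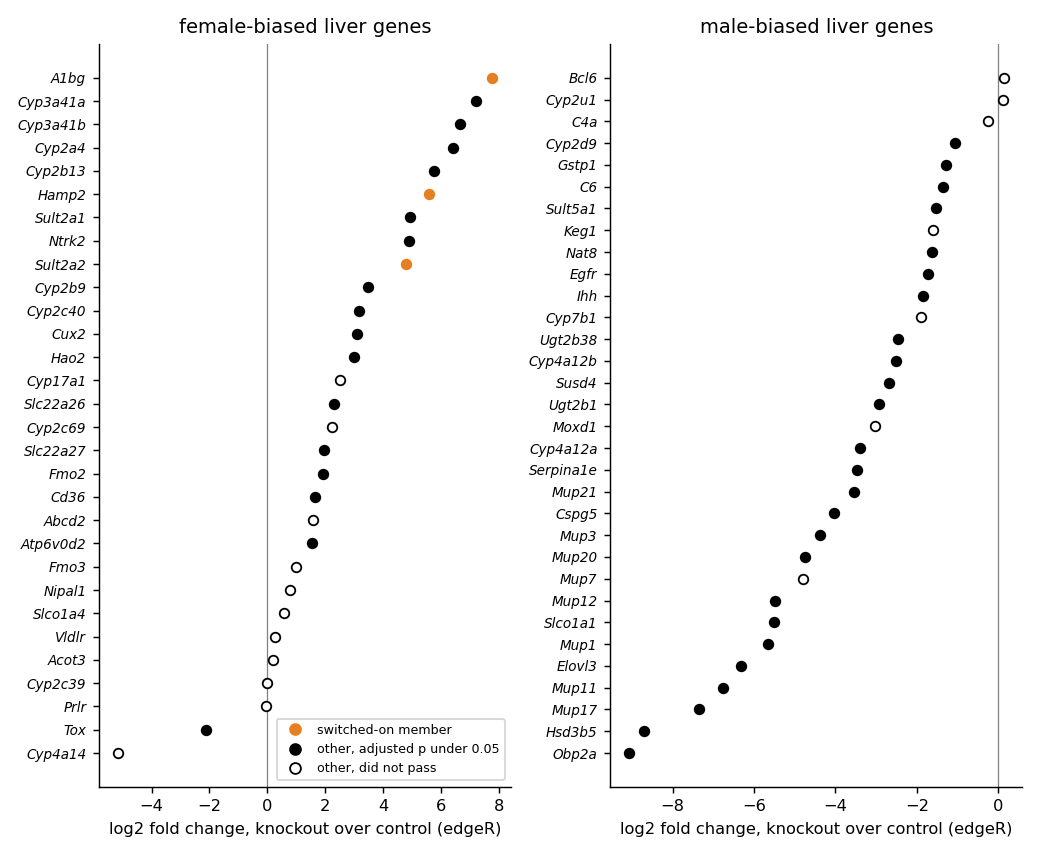
Log2 fold change, knockout over control, from edgeR with TMM scaling (x axis) for each tested gene of the female-biased (left) and male-biased (right) liver lists, 1 gene per row. Orange points are the switched-on genes A1bg, Hamp2 and Sult2a2, filled black points passed an adjusted p of 0.05 and open points did not; most female-biased genes lie right of 0 and most male-biased genes left of it.

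Metabolic genes in the set are better known from fat, muscle or kidney. Fndc5, the precursor of the muscle hormone irisin, was at 12.9, 12.4 and 22.9 CPM in knockout and 0.113, 0.279 and 0.631 CPM in control libraries. Ffar4, a receptor for long-chain fatty acids, was at 12.8, 10.5 and 6.52 CPM in knockout and 0.15, 0.319 and 0.406 CPM in control libraries. Jazf1, a zinc finger cofactor linked to metabolic traits, was at 10.7, 7.25 and 10.2 CPM in knockout and 0.15, 0.2 and 0.315 CPM in control libraries. The lowest knockout library lay more than 10 times above the highest control library in each of them.

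Aqp7, the glycerol channel of fat cells, was at 3.45, 3.19 and 5.49 CPM in knockout and 0.0376, 0 and 0 CPM in control libraries. Its ratio of 298 rests on 1 control count, with an interval of 53.03 to 11790. Fbp2, the muscle form of fructose-bisphosphatase, was at 3.02, 5.09 and 2.61 CPM in knockout and 0.113, 0.279 and 0.0901 CPM in control libraries. The liver forms of both proteins were expressed throughout. Fbp1, which catalyses the same gluconeogenic step, was at 892.3 ± 56.3 CPM in knockout and 716.1 ± 31.8 CPM in control cells. With TMM scaling its direction was reversed, and it was not called (log2 fold change -0.28, edgeR adjusted p = 0.107). Aqp9, the glycerol channel of hepatocytes, was at 300.4 ± 16.2 and 500.1 ± 42.0 CPM (log2 fold change -1.32, edgeR adjusted p = 0.000384, SD, n = 3 each). Hrasls, a phospholipid-modifying enzyme, had no control count and 4.43, 3.49 and 5.97 CPM in knockout libraries. Its ratio against the floor was 113.6, and the interval begins at 91.89.

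The 4 genes of small GTPase signalling ran from among the highest to among the lowest knockout levels. Rasl10b, a Ras-like GTPase, was at 29.2, 21.3 and 33.8 CPM in knockout and 0.827, 0.479 and 0.18 CPM in control libraries. Rasal1, a Ras GTPase-activating protein, was at 32.3, 15.4 and 32.9 CPM in knockout and 0.526, 0.16 and 0.18 CPM in control libraries. Control replicate 1 was the highest control library for both. Rab40b, a Rab-family GTPase, averaged 5.19 CPM in knockout and 0.320 CPM in control cells, and Rapgefl1, related to exchange factors of Rap, 2.05 and 0.427 CPM. Without any role group, Lysmd2, a LysM domain protein, was at 14.6, 9.98 and 6.52 CPM in knockout and 0.414, 0.239 and 0.406 CPM in control libraries.

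**Figure D4:**
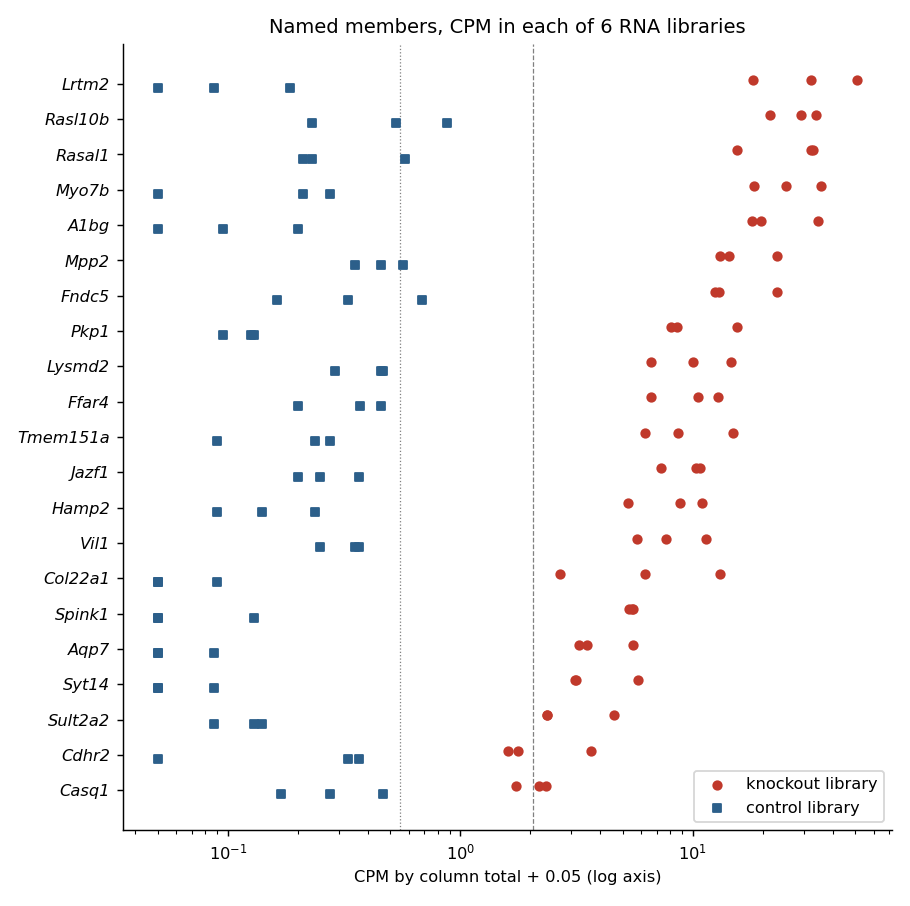
CPM plus 0.05 on a log axis in each of the 6 RNA libraries for the 21 switched-on genes with the highest knockout levels, the largest ratios or a place in a gene list; red circles are the 3 knockout libraries and blue squares the 3 control libraries. The dotted line marks 0.5 CPM and the dashed line 2 CPM; in every row all knockout points lie right of all control points.

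Protease inhibitors and secreted proteases numbered 6. Spink1, a trypsin inhibitor of the pancreas that also rises in fetal and injured liver, was at 5.45, 5.43 and 5.26 CPM in knockout and 0, 0.0798 and 0 CPM in control libraries. It was the most even of all switched-on genes, and its ratio of 199 rests on 2 control counts (interval 54.6 to 1645). Wfdc16, a whey acidic protein domain gene, was at 8.59, 10.3 and 6.76 CPM in knockout and 0, 0.0399 and 0.0901 CPM in control libraries, and its ratio of 211 rests on 3 control counts (interval 72.0 to 1027). Of 11 other tested fetal liver genes, 2 were called higher (Cdkn1c and Ect2) and 1 lower (Peg3), against 12.6% and 12.95% of all tested genes. Afp, the classical fetal liver protein, was at 3.02 ± 0.881 CPM in knockout and 1.17 ± 0.576 CPM in control cells (edgeR adjusted p = 0.190; SD, n = 3 each).

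Matrix genes numbered 8. Col22a1, a collagen of tissue junctions, was at 6.20, 2.62 and 13 CPM in knockout and 0, 0.0399 and 0 CPM in control libraries, with a ratio of 533 on 1 control count (interval 95.3 to 21090). Its knockout libraries spread widely, with replicate 3 the highest and replicate 2 the lowest. Hapln1, which links hyaluronan to proteoglycans, averaged 8.01 CPM in knockout and 0.253 CPM in control cells, and Fap, a protease of activated fibroblasts, 2.62 and 0.176 CPM. Of 29 other tested collagens, 10 were called higher and 3 lower, against 12.6% and 12.95% of all tested genes. Of 11 stellate and fibroblast markers, 1 was called higher (Postn). The summed level of those markers was 277.8 to 323.8 CPM in knockout and 91.37 to 197.7 CPM in control libraries, and its part in the matrix genes was not tested.

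The 7 immune genes of the set were low. They ranged from 2.027 to 2.429 CPM on average in knockout cells and included P2ry10, a lysophosphatidylserine receptor of lymphocytes, Spn, the leukocyte sialophorin CD43, and Ifi205, an interferon-inducible protein. Markers of T and NK cells were summed at 7.63 to 10.7 CPM in knockout and 2.75 to 6.23 CPM in control libraries, with 0 of 8 tested called in either direction. The macrophage marker sum given above and 4 of 8 dendritic cell markers were higher in knockout cells. Of 31 interferon response genes, none of them in the switched-on set, 20 were called higher and 0 lower. Over all tested genes, 12.6% were called higher and 12.95% lower. The interferon response genes had a median log2 fold change of 1.46. Their summed level was 1093 to 1581 CPM in knockout and 382.7 to 505.5 CPM in control libraries. The part of these cells and of the interferon response in the immune genes was not tested.

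Histone genes numbered 5. Hist1h4d was at 10.0, 5.28 and 6.72 CPM in knockout and 0.188, 0.798 and 0.36 CPM in control libraries. Hist1h1d averaged 7.55 CPM in knockout and 0.448 CPM in control cells, Hist1h4c 4.42 and 0.398 CPM, Hist2h4 3.30 and 0.467 CPM, and H1fx 2.63 and 0.0300 CPM. Histone H4 genes are nearly identical in sequence, so reads could be split among them, and mRNAs of replication-dependent histones lack a poly(A) tail in dividing cells. Whether RNA was selected by its poly(A) tail is not stated in the labels.

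Epidermal genes numbered 2 and muscle genes 3. Pkp1, plakophilin of desmosomes, was at 15.4, 8.46 and 7.98 CPM in knockout and 0.0752, 0.0798 and 0.0451 CPM in control libraries, a ratio of 156. Sbsn, suprabasin of the epidermis, averaged 8.62 CPM in knockout and 0.305 CPM in control cells. Of 10 other tested keratin, desmosome and epidermal genes, 2 were called higher (Sfn and Evpl) and 2 lower (Lor and Perp). Over all tested genes, 12.6% were called higher and 12.95% lower. Casq1, the calcium store protein of skeletal muscle, was at 1.69, 2.13 and 2.29 CPM in knockout and 0.414, 0.12 and 0.225 CPM in control libraries. The other muscle genes were Klhl31, a kelch-like protein, and Plpp7. Of 8 other tested muscle contraction genes, 2 were called higher (Neb and Lmod2) and 0 lower, against the same shares over all tested genes.

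Germ cell and cilium genes numbered 8, of which Capn11, a testis calpain, was the least even. It was at 11.6, 1.10 and 2.33 CPM in knockout and 0.15, 0.239 and 0.0901 CPM in control libraries, so its knockout mean rests mainly on replicate 1. Adam2, a sperm surface protein, was at 2.67, 6.68 and 1.98 CPM in knockout and 0.226, 0.12 and 0.0451 CPM in control libraries, with replicate 2 the highest. Transcription factors numbered 5 and included Meox1, a homeobox factor of somites, at 3.29, 3.57 and 6.48 CPM in knockout and 0.263, 0.0399 and 0 CPM in control libraries. The knockout peaks of these genes fell in different libraries.

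Switched-on genes lay on many chromosomes, with 13 on chromosome 9, 12 on chromosome 11 and 11 on chromosome 7. These were 4.276%, 3.085% and 2.461% of the near-silent genes there, against 2.413% over all chromosomes. Chromosome 15, with 7, had 3.933%. Apart from Lrtm2 and Cacna2d4, close pairs were Hrasls and Atp13a5, a cation-transporting ATPase (1319 bp apart on opposite strands), Epn3 and Mycbpap (1372 bp), and Baiap2l2 and Slc16a8, a lactate transporter (3433 bp). In all, 8 of the 121 lay within 10000 bp of another. Overlap with another listed gene was found for 32 (26.45%), against 27.37% of the other near-silent genes. Overlap with a gene on the opposite strand that was itself at 2 CPM or more in knockout cells was found for 10 (8.264%), against 9.769%.

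A gene on the same strand that ended within 5 kb upstream and was read at 5 CPM or more was found for 14 switched-on genes (11.57%), against 289 of 4893 other near-silent genes (5.906%). Npb, a neuropeptide precursor, starts 279 bp after Anapc11, and Nol3, an apoptosis repressor, 295 bp after Hsf4. Baiap2l2 starts 691 bp after Pla2g6. Pla2g6 was at 125.0, 116.3 and 119.7 CPM in knockout and 56.7, 69.4 and 72.3 CPM in control libraries, in which Baiap2l2 had no count. Whether reads past the end of the upstream gene reach these genes was not tested.

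The CpG content of switched-on promoters lay nearer that of other near-silent genes than that of expressed genes. RefSeq promoters (250 bases before to 50 after the start) were matched for 79 of the 121 genes and for 12653 protein-coding genes. A CpG ratio (observed over expected) of 0.6 or more was found in 33 of the 79 (41.77%), against 33.68% of other near-silent genes, 78.03% of genes at 5 CPM or more in controls and 62.14% of all. A GC box (GGGCGG) was found in 44.3%, against 39.19% of other near-silent genes and 58.0% of all promoters. A CCAAT box (CCAAT) was found in 29.11%, against 38.23% and 38.51%.

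The STAT element TTCNNNGAA was found in 7 of the 79 promoters (8.861%), against 7.066% of other near-silent genes and 6.931% of all, with motifs searched on both strands. Besides A1bg and Hamp2, whose sites are in capitals above, these were Calml4, Mtfr2, Tinag, Trim15 and Zfp13. The full cyclic AMP response element TGACGTCA, the site of the glucagon-activated factor CREB, was found in 3 (3.797%, Neurl1a, Mycbpap and BC049762), against 2.126% of other near-silent genes and 2.932% of all. Its part TGACG, which the full element also holds, was found in 18 (22.78%), against 18.89% and 28.55%. TATAAA was found in 6 (7.595%), against 13.95% and 9.041%, and the E-box CACGTG in 4 (5.063%), against 6.737% and 9.35%. A match is a description of the sequence and not a bound site.

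ChIP regions at the starts of switched-on genes were few in both genotypes. The sample titles name RNA polymerase III while the series' design text names Lcmr1, so the immunoprecipitated protein is unclear, and with 1 library per genotype no test was possible. The knockout list held 1649 regions and the control list 22793. Within 1 kb of the start, the knockout list had a region at 5 switched-on genes (4.132%), against 0.3494% of genes near silent in both genotypes and 2.544% of genes at 5 CPM or more in controls. The control list had one at 7 (5.785%), against 2.995% and 44.4%.

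The genes with a region in both lists were Hist1h4c, Hist1h4d, Hist2h4, Npb and Mtfr2, a regulator of mitochondrial fission. Neither region covers the start of Npb, a short gene (chromosome 11, 120608477 to 120609093, plus strand). Its knockout region (120609379 to 120610019) lies past the gene's end, and its control region (120609021 to 120610683) begins just before that end. BC049762 and Trpm8 had one in the control list only. The region at Hist1h4c (chromosome 13, 23698211 to 23698614 in the knockout list and 23698046 to 23698630 in the control list, mm10) had the highest fold over background of these genes in each list, 14.7 in the knockout and 25.4 in the control list, as the authors' peak caller gave it. At Hist1h4d the knockout region spans 23581552 to 23582070 and the control region 23581467 to 23582030, so both begin inside the promoter stretch printed above. The other 4 genes at 20 CPM or more with Lrtm2, namely Rasl10b, Rasal1, Myo7b and A1bg, had no region within 1 kb of the start in either list, nor had Lrtm2.

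**Figure D5:**
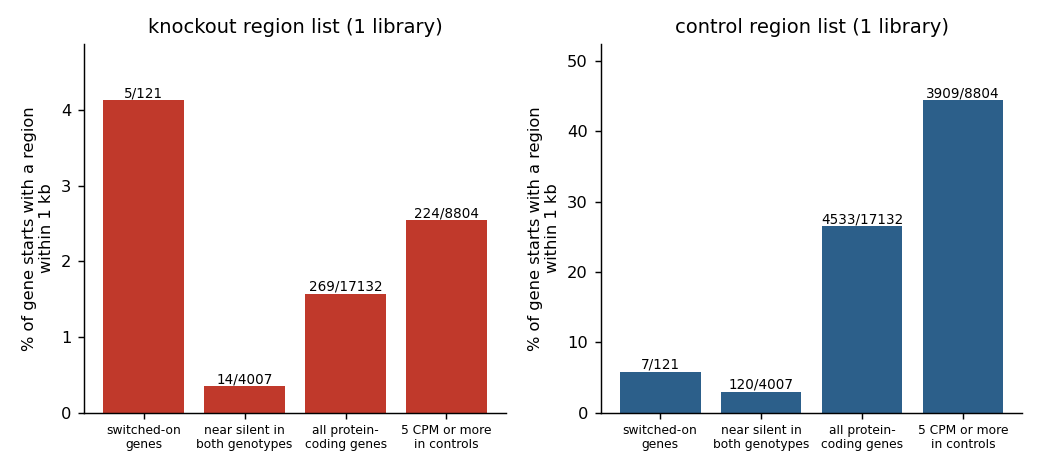
Share of gene starts with a ChIP region within 1 kb (y axis, percent) in the knockout list (left) and the control list (right), 1 library each, with counts over the bars; the y axes differ in scale. Switched-on genes had 5 of 121 in the knockout list and 7 of 121 in the control list, while genes at 5 CPM or more in controls had 44.4% in the control list.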

How the data were processed

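RNA counts per Ensembl gene on mm10 were deposited by the authors as whole numbers, and HISAT2 2.1.0, Bowtie2 2.2.3 and HTSeq 0.6.0 are named in the submitters' processing notes without roles. No source used here gives the strand setting. The deposited table also carries the authors' fold change as a ratio, its log2, p-values (raw and adjusted), and a mean of scaled counts (signal) that was not used. ChIP region lists deposited by the authors (MACS2 named in the submitters' processing notes) give for each region a score, a fold (ratio) and the -log10 of its p-value and q-value.

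Here, counts were divided by column totals for the membership rule. The switched-on genes, their role groups and all gene lists were chosen with earlier results of these data known. The 15135 genes kept by filterByExpr (minimum count 10, total 15) were tested with edgeR 4.0.16 in R 4.3.3 (TMM, quasi-likelihood, two-sided, genotype only, Benjamini-Hochberg adjustment over all of them), after a check on simulated counts. Ratios are of summed counts scaled by summed totals, and intervals are 95% exact and cover counting error only; a control total of 0 was set to a floor of 3 counts. Groups came from sample titles. Values in every library are given for the 12 switched-on genes with the highest knockout CPM, the 6 largest ratios and those in a list; further genes were named after their values were seen. Pairs of replicates differed by more than sampling noise. No genome was used; promoters came from RefSeq (GRCm38.p6), matched by gene and taken where their start lay within 5 kb of the table's. Alternatives were other scalings, filters and thresholds, DESeq2 1.42.0, a replicate block and leaving out each library.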

Additional observations from a re-analysis of the deposited data

How the results depend on the processing

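The number of switched-on genes depends on the thresholds and the scaling. It was 70 with TMM-scaled CPM, 51 and 340 with control limits of 0.25 and 1 CPM, 374 and 31 with knockout limits of 1 and 5 CPM, and 114 to 130 without any 1 library. The mirror set of 11 became 13 with TMM-scaled CPM, and 2 and 23 with the low limit at 0.25 and 1 CPM. It was 28 and 6 with the high limit at 1 and 5 CPM, and 9 to 15 without any 1 library. Under library size alone, 8328 genes were called (7711 higher, 617 lower) and 2 female-biased genes were lower. Without any 1 library the calls numbered 2236 to 4921 (1119 to 2407 higher, 1104 to 2514 lower), and male-biased genes called lower 14 to 26. They numbered 14 with no count filter. With a 5 kb window, 12 switched-on genes had a control ChIP region. Deviations of libraries with the same replicate number correlated at 0.11, 0.0521 and 0.0937, and each library correlated best with its own number. The labels do not say that the number marks a shared animal, litter or day. Pairing is therefore unresolved, and the main fit used genotype only. A replicate block gave 3468 calls (1713 higher, 1755 lower), with 20 female-biased genes higher and 23 male-biased genes lower. The cause of these shifts was not tested, except that fewer libraries were used where 1 was left out. Depth limits the ratios: 35 switched-on genes had 10 or fewer control counts.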

Other observations

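The genes that went near silent were fewer and partly of 1 kind. Of the 11, Hsd3b5, a male-biased steroid dehydrogenase, had 0, 34 and 0 counts in knockout and 245, 4559 and 4267 counts in control libraries, where control replicate 1 was far below the others. Pitx3, a homeobox factor of lens and midbrain, had 3, 25 and 0 counts in knockout and 437, 583 and 441 counts in control libraries. Both had their highest knockout count in replicate 2. Obp2a, Cspg5 and Hsd3b5 are on the male-biased list. The other genes were Ptgds, Sema5b, Adgrf1, Spsb4, Slc6a16, Grm8 and Ces4a.

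Outside the protein-coding class, 30 genes met the same expression rule, 13 of them long intergenic noncoding RNAs. Gm10941, an RNA from a bidirectional promoter, had 194, 143 and 144 counts in knockout and 5, 12 and 3 counts in control libraries. The intergenic RNA 4632428C04Rik had 78, 234 and 147 counts in knockout and 7, 12 and 8 counts in control libraries. The library with the highest count differed between them.

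Ypel4, a zinc-binding protein gene of the switched-on set, lies 45842 bp from Med19. It was at 6.94, 2.5 and 3 CPM in knockout and 0.301, 0.239 and 0.225 CPM in control libraries. Tmx2, which overlaps Med19, had 2039, 1606 and 2417 counts in knockout and 690, 800 and 801 counts in control libraries and was called higher by edgeR. Of the 13 neighbours looked at, 3 were called higher (Tmx2, Ypel4 and Rtn4rl2) and 1 lower (Serping1), against 12.6% and 12.95% of all tested genes. Another 8 were not called, among them Zdhhc5, which also overlaps Med19, and 1 was not tested.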
